A study of Mus musculus with 3 samples.

Results

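The genes described here are 10 members of the vitamin K dependent protein system of bone, chosen by symbol: Bglap, Bglap2, Mgp, Postn, Gas6, Pros1, Ggcx, Vkorc1, Vkorc1l1 and Axl. All 10 were found among the 25410 gene symbols of the deposited files, and 6 encode proteins of the Gla group, 3 encode enzymes and 1 encodes a receptor. Transcripts were sequenced from total RNA after ribosomal RNA had been depleted, in IDG-SW3, an osteocytic mouse cell line that proliferates at a lower temperature with interferon-gamma and then differentiates without it in osteogenic medium with ascorbic acid and β-glycerol phosphate. The single group held 3 biological replicate libraries at day 35 of differentiation, all exposed to 100 nM parathyroid hormone (PTH) for 24 h. All cells came from this 1 line, and the vehicle-treated libraries were not analysed here, so no effect of PTH on any gene was measured. Each comparison below sets a gene against a fixed level or against another gene of the same library. A level is given in RPKM, computed here as counts per kilobase of transcript and per 1000000 counts of the library, as mean ± SD over the libraries (n = 3).

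Vitamin K dependent proteins carry glutamate residues that are converted to gamma-carboxyglutamate (Gla), which binds calcium. The carboxylase Ggcx makes this change in the endoplasmic reticulum and oxidises reduced vitamin K to its epoxide, and the epoxide reductase Vkorc1, the target of warfarin, and its paralogue Vkorc1l1 recycle the vitamin. Osteocalcin is the best known Gla protein of bone and is made by osteoblasts, and matrix Gla protein (Mgp) restrains mineralization. Gas6 and protein S (Pros1) are ligands for receptors of the Tyro3, Axl and Mertk family of tyrosine kinases. Periostin (Postn), a matricellular protein, stands in the Gla group because its carboxylation has been reported, although this has been questioned.

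Bglap and Bglap2 are near-identical osteocalcin genes, and their coding sequences are printed because the similarity of the copies bears on how their reads can be told apart. The open reading frames below were read 5′ to 3′ from the GENCODE M21 transcripts (build GRCm38). Capitals mark the bases at which the copies differ.
Bglap: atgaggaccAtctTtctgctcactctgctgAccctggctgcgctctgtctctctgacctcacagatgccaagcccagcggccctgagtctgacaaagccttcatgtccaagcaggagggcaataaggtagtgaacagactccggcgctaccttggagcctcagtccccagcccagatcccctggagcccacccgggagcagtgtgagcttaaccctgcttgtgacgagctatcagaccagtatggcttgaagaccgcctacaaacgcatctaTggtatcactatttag
Bglap2: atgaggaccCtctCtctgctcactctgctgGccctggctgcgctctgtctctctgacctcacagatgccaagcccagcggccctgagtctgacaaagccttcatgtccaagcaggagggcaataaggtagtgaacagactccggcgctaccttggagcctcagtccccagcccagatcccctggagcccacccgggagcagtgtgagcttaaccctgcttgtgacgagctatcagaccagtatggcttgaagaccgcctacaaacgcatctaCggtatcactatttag

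Each open reading frame was 288 bases long, with 95 codons before the stop. Bglap and Bglap2 differed at 4 bases (98.6% identity). Over the whole transcripts, their longest shared run was 241 bases. Of the 391 stretches of 50 bases in the Bglap transcript, 292 (74.7%) also occurred in Bglap2, where they made up 69.2% of 422. How the authors assigned reads that match both copies is not given in the sources used here. The separate values of Bglap and Bglap2 are therefore uncertain, and their sum is given beside them. If such reads were left out or counted for both copies, this sum and every total that includes it are off as well.

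The libraries held 35195518, 37299517 and 45240005 counts in replicates 1, 2 and 3, and the 10 genes took 0.579%, 0.546% and 0.569% of them. Of 12 osteoblast and osteocyte markers, 8 were above 1 RPKM, where 43.2% of all genes tested were. Among them were Sparc, Col1a2, Ibsp and the osteocyte genes Pdpn (156 ± 27.6 RPKM) and Phex (9.05 ± 0.940). The other 4, the osteocyte genes Dmp1, Mepe, Fgf23 and Sost, were not called in either direction, with 77, 115 and 6 counts for Dmp1 and 2, 0 and 0 for Sost. Marker lists of other cell types were low, with summed levels per library of 0.421 to 0.477 RPKM for hepatocytes, 0.442 to 1.65 for macrophages and osteoclasts, 2.86 to 3.27 for endothelium, 0.555 to 1.54 for smooth muscle and 1.15 to 1.62 for cartilage. In this order, the 5 lists had 4, 4, 3, 2 and 4 genes tested. Of these, 4, 2, 0, 1 and 2 were not called in either direction. Among these 5 lists, Kdr, at 2.62 ± 0.185 RPKM, was the 1 gene above 1 RPKM, against 43.2% of all genes tested. Fga, Acp5, Pecam1 and Myh11, each with several rows in the files, were listed at 0. Their rows leave those values, and the sums that include them, uncertain. In such a bulk sample, fewer cells of a type and less RNA per cell cannot be told apart.

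All 6 Gla protein genes were abundant, and the enzymes and the receptor lay lower. In edgeR's quasi-likelihood test of each level against 1 RPKM, run over 21011 genes, 9 of the 10 genes were above, where 43.2% of all genes tested were, and 1 (Vkorc1l1) was below, where 13.4% of all genes were. The median level of the 6 Gla protein genes was 265 RPKM, against 0.74 RPKM over all genes tested.

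**Figure D1:**
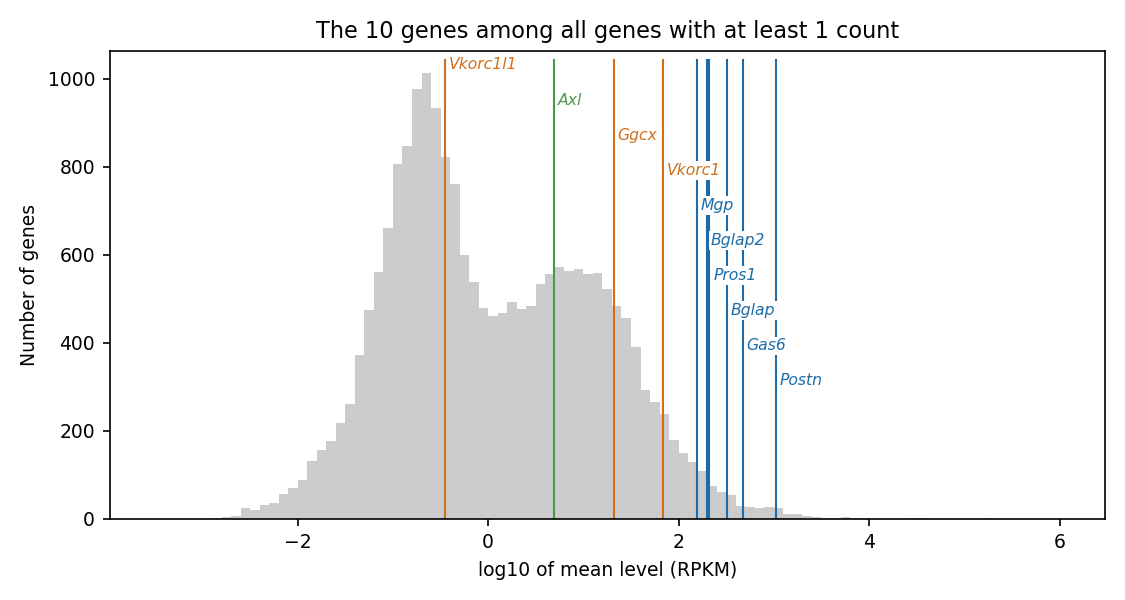
Histogram of the mean level over 3 libraries, as log10 RPKM (horizontal axis), of all genes with at least 1 count, with the number of genes on the vertical axis; lines mark Gla protein genes (blue), enzymes (orange) and the receptor Axl (green). The Gla protein genes, from 156 to 1045 RPKM, stand in the upper tail, and Vkorc1l1, at 0.355 RPKM, stands in the lower peak.

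Postn was the highest of the 10 genes, at 1083, 1019 and 1033 RPKM in replicates 1, 2 and 3 (1045 ± 33.9). It exceeded 99.7% of the genes tested and took 0.33% of all counts on average, and the libraries differed little, with a coefficient of variation of 3.24%. Its homologue Tgfbi, which encodes a related matrix protein, stood far lower at 34.6 ± 3.77 RPKM.

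Gas6, the ligand gene, followed at 459, 466 and 488 RPKM (471 ± 14.9). Pros1, which encodes the anticoagulant protein S, had 225, 196 and 209 RPKM (210 ± 14.4). The Gas6 levels of the 3 libraries all lay above the highest Pros1 level.

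Osteocalcin counts were divided between the copies. How reads that match both copies were assigned is not given, so this split is uncertain. Bglap had 4970, 4516 and 7193 counts, or 321, 275 and 361 RPKM (319 ± 43.1). Bglap2 had 3310, 3183 and 4654 counts, or 199.7, 181 and 218 RPKM (199.8 ± 18.6). Both were highest in replicate 3 and lowest in replicate 2, and the ranges of the copies did not overlap. The coefficient of variation of Bglap, 13.5%, was above that of 77.6% of the 4708 genes with a mean of 10 RPKM or more, whose median was 8.68%. Bglap has 2 rows in the files, and 1 of them held 0 counts in every library, so all of its counts came from the other row.

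Of the counts of both copies together, Bglap took 60.02%, 58.66% and 60.72% in replicates 1, 2 and 3, with exact 95% binomial intervals of 58.96% to 61.08%, 57.55% to 59.76% and 59.83% to 61.60%. Bglap2 took the other 39.98%, 41.34% and 39.28%. The intervals of replicates 2 and 3 did not overlap; they cover counting error only. Added together, the copies stood at 521, 456 and 580 RPKM (519 ± 61.7), a range that includes every Gas6 level.

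**Figure D2:**
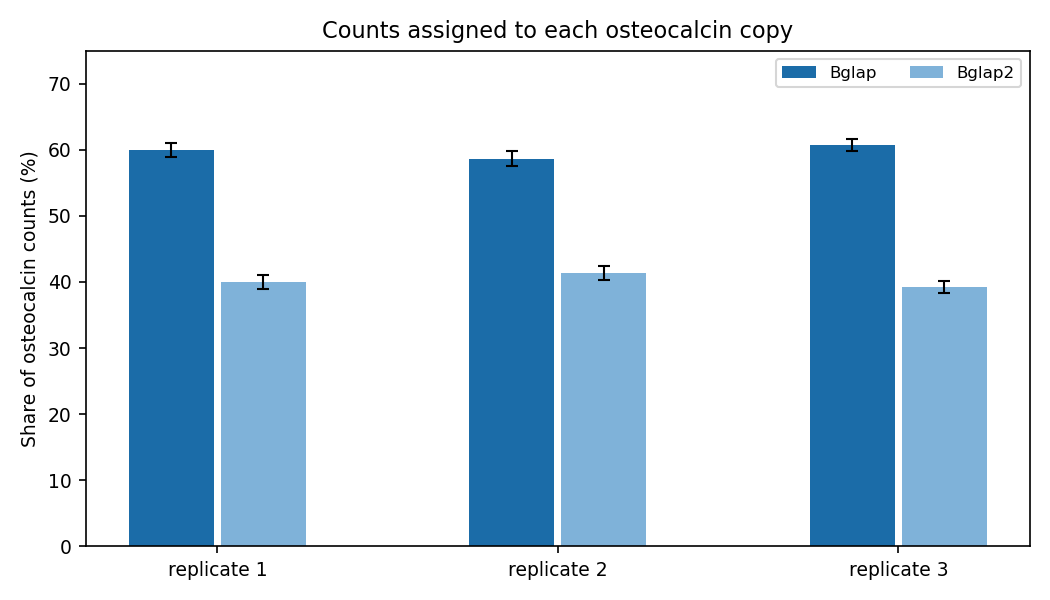
Share in percent of the counts of both osteocalcin copies assigned to Bglap and Bglap2 (bars) in each of the 3 libraries, with exact 95% binomial intervals (error bars). Bglap holds 58.66% to 60.72% in the 3 libraries.

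Mgp, the mineralization inhibitor, was the lowest of the Gla protein genes in all 3 libraries, at 161, 144 and 163 RPKM (156 ± 10.1). It still exceeded 97.7% of all genes tested. Bglap2 was 1.28-fold above it (log2 ratio 0.35 ± 0.06, higher in 3 of 3 libraries, edgeR adjusted p = 2.24e-05), where 2.04% of all genes were above Mgp.

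The enzymes covered a wide span. Vkorc1, the epoxide reductase, had 73.1, 61.3 and 70.2 RPKM (68.2 ± 6.14). The carboxylase Ggcx had 20.7, 19.2 and 22.3 RPKM (20.7 ± 1.57). Every Vkorc1 level lay above every Ggcx level, and Vkorc1 held 76.4% ± 1.04 of the summed enzyme level against 23.3% ± 1.13 for Ggcx. The level of Vkorc1 depended on the transcript length taken, from 55.3 RPKM with the longest annotated transcript to 106.8 with the shortest.

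Vkorc1l1, the paralogue of Vkorc1, had 54, 17 and 60 counts, or 0.493, 0.146 and 0.426 RPKM (0.355 ± 0.184). Replicate 2 was the lowest, and all counts came from 1 of the 2 rows of this gene. Its log2 level against 1 RPKM was −1.49 (edgeR adjusted p = 0.0167). The call was lost without replicate 1 (edgeR adjusted p = 0.0601), without replicate 2 (0.122) and with DESeq2 (0.56), and the direction turned with the shortest transcript (log2 0.757, edgeR adjusted p = 0.132). Above 1 RPKM were 26.7% of 1578 symbols with 2 rows and 45.4% of 18757 symbols with 1 row, and the part of the row structure in this low value was not tested.

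Axl, the receptor gene, had 603, 820 and 949 counts, or 4.20, 5.39 and 5.14 RPKM (4.91 ± 0.627). It was lowest in replicate 1, as was Gas6, whereas the other 8 genes were lowest in replicate 2. With TMM or DESeq2 scaling, 7 of the 10 genes were lowest in replicate 2.

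**Figure D3:**
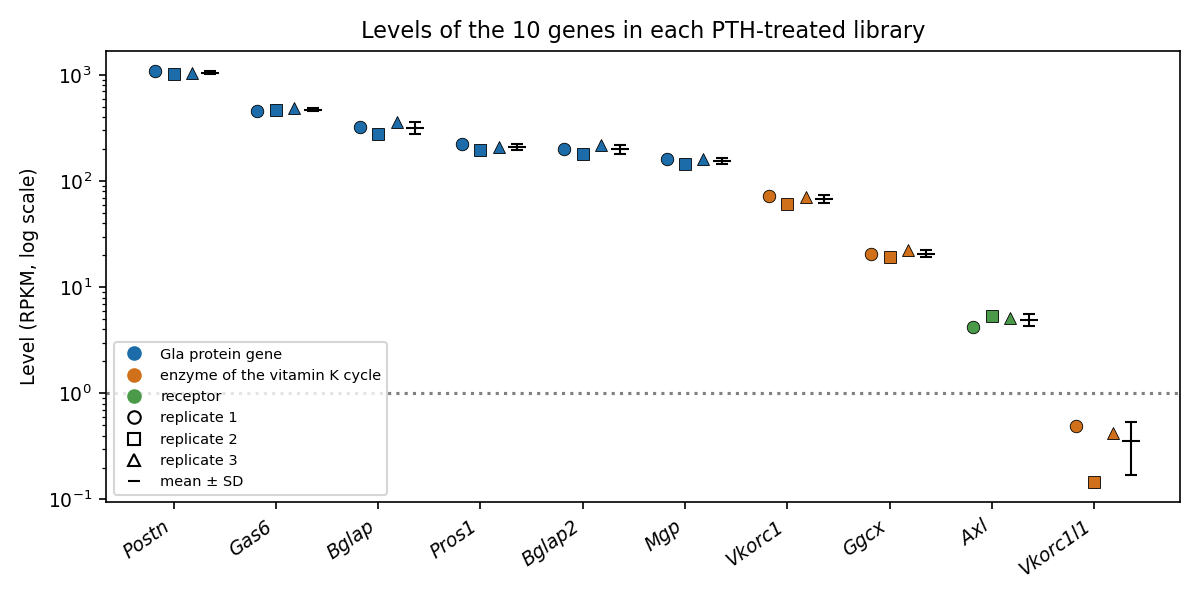
Level in RPKM (vertical axis, log scale) of each of the 10 genes in the 3 libraries (marker shapes), with mean ± SD beside them; colours give the class and the dotted line 1 RPKM. The levels fall from Postn at 1045 to Axl at 4.91 and Vkorc1l1 at 0.355 RPKM, and only Vkorc1l1 lies below the line.

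In the order of mean levels, 8 of the 9 neighbouring pairs differed beyond the spread between libraries, with the lower gene as reference. Each gene was used in turn as the reference for all others, with the same edgeR test and adjustment over all genes. The counts of the reference were taken as known, so a result can depend on which gene of a pair is the reference. Postn stood 2.22-fold above Gas6 (log2 ratio 1.15 ± 0.08), a level that 0.704% of all genes exceeded. With the correction for GC content this step was 1.20-fold (edgeR adjusted p = 0.000182). Gas6 stood 1.48-fold above Bglap (log2 ratio 0.57 ± 0.17, edgeR adjusted p = 1.25e-06), which 0.919% of all genes exceeded, and 2.97-fold with counts averaged over rows.

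Bglap stood 1.51-fold above Pros1 (log2 ratio 0.60 ± 0.17, edgeR adjusted p = 2.14e-12), which 1.49% of all genes exceeded, and 2.51-fold with the GC correction. That direction turned when counts were averaged over rows, which divides Bglap by its 2 rows (log2 ratio −0.396, edgeR adjusted p = 0.00015). Pros1 and Bglap2 did not differ beyond their spread (log2 ratio 0.07 ± 0.12, higher in 2 of 3 libraries, edgeR adjusted p = 0.377), and 1.54% of all genes were above Bglap2. With the GC correction their levels were 172 and 284 RPKM, and Pros1 was below Bglap2 (log2 ratio −0.713, edgeR adjusted p = 1.23e-11).

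Mgp stood 2.29-fold above Vkorc1, Vkorc1 3.29-fold above Ggcx, Ggcx 4.24-fold above Axl and Axl 15.6-fold above Vkorc1l1, each in 3 of 3 libraries. Of all genes, 49.1% were above Vkorc1l1. With the shortest transcripts the first 2 of these steps were 1.46-fold and 5.14-fold. The step from Axl to Vkorc1l1 ranged from 3.41-fold with the shortest transcripts to 31.1-fold with counts averaged over rows, and its fitted log2 ratio was 4.25 with all libraries and 3.36 without replicate 2. The Gla protein genes spanned 6.70-fold from Mgp to Postn.

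Set against the carboxylase, 7 of the 9 other genes were above Ggcx, where 12.9% of all genes were, and 2 (Axl and Vkorc1l1) were below, where 83.7% of all genes were. The 7 were the 6 Gla protein genes and Vkorc1. Postn exceeded Ggcx 50.5-fold (log2 ratio 5.66 ± 0.11). Bglap exceeded it 15.3-fold (log2 ratios 3.95, 3.84 and 4.02 in replicates 1, 2 and 3), and Bglap2 9.62-fold, with 3.27, 3.24 and 3.29. With counts averaged over rows, the log2 ratio of Bglap to Ggcx was 2.94. The log2 ratio of Bglap2 to Ggcx had an SD of 0.03. Mgp had the smallest ratio of the Gla group, 7.53-fold.

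Against the reductase Vkorc1, the 6 Gla protein genes were above, where 4.57% of all genes were, and Ggcx, Axl and Vkorc1l1 were below, where 93.9% of all genes were. Summed per library, the Gla protein genes reached 2448, 2282 and 2473 RPKM and the enzymes 94.3, 80.7 and 93.0 RPKM, a ratio of 26.0, 28.3 and 26.6. Postn made up 43.6% ± 1.55 of the Gla sum, and without it the ratio was 14.5, 15.7 and 15.5. Both sums were lowest in replicate 2, and their ratio was highest there.

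**Figure D4:**
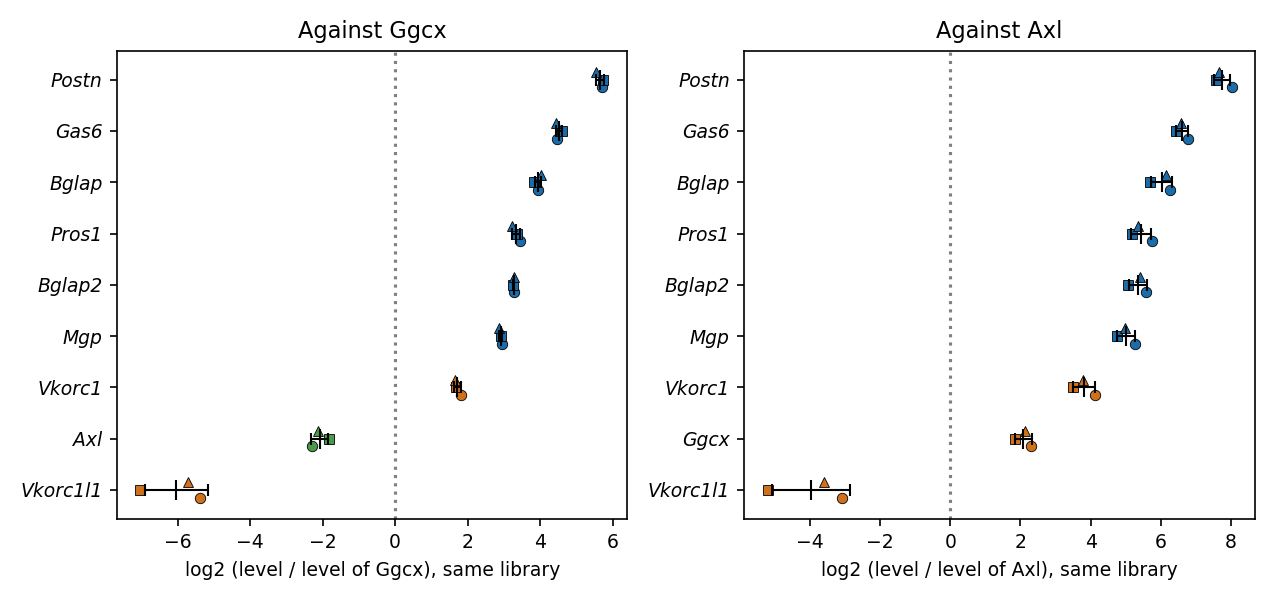
Within-library log2 ratio of each gene to Ggcx (left) and to Axl (right) in the 3 libraries (marker shapes), with mean ± SD (black); 0 means an equal level. The 6 Gla protein genes and Vkorc1 lie above 0 in both panels, Vkorc1l1 lies below 0 in both, and Axl lies below 0 against Ggcx.

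Against the receptor, 8 of the 9 other genes were above Axl, where 27.8% of all genes were, and Vkorc1l1 was below, where 56.6% of all genes were. With Axl as the reference, the call of Vkorc1l1 was lost with DESeq2 (adjusted p = 0.0768). With Vkorc1l1 as the reference, DESeq2 called the same pair (adjusted p = 8.78e-12). Gas6, the ligand of Axl, exceeded its receptor 96.5-fold, with log2 ratios of 6.77, 6.44 and 6.57. Pros1 exceeded Axl 43.0-fold, with log2 ratios of 5.74, 5.19 and 5.35. Both ratios were highest in replicate 1, where Axl was lowest.

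The other receptors of the same family, which bind Gas6 and protein S, lay within a few RPKM of Axl. Mertk had 5.50, 6.50 and 6.03 RPKM (6.01 ± 0.499) and did not differ from Axl past the threshold (log2 ratio 0.30 ± 0.08, higher in 3 of 3 libraries, edgeR adjusted p = 0.0767). Tyro3 had 2.21, 3.62 and 2.92 RPKM (2.92 ± 0.706) and was below Axl (log2 ratio −0.77 ± 0.18, lower in 3 of 3 libraries, edgeR adjusted p = 0.000363). The order of Mertk and Axl turned with the correction for GC content, at 5.29 and 6.08 RPKM. Axl made up 35.5% ± 0.904 of the summed level of the 3 receptors, and the summed ligands exceeded the summed receptors by 57.4, 42.7 and 49.5 times.

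**Figure D5:**
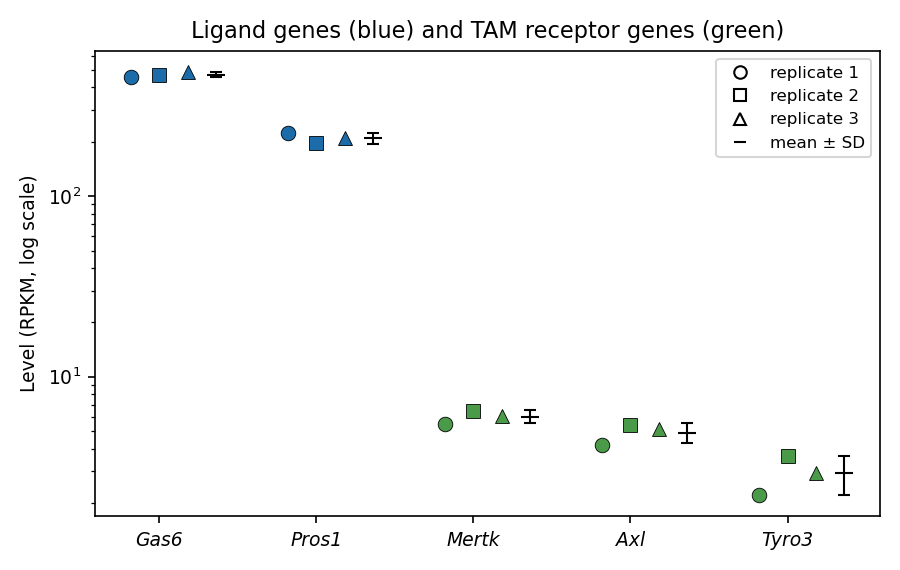
Level in RPKM (vertical axis, log scale) of the ligand genes Gas6 and Pros1 (blue) and the receptor genes Mertk, Axl and Tyro3 (green) in the 3 libraries, with mean ± SD. The ligand genes lie between 196 and 488 RPKM and the receptor genes between 2.21 and 6.50 RPKM.

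Other Gla protein genes were mostly low. Of 11 listed, 2 were above 1 RPKM, where 43.2% of all genes tested were, and 2 below, where 13.4% were. A further 5 were unresolved, and 2 (Ucma and Proc, with 3 rows each) were listed at 0, a value that their rows leave uncertain. Those above were Prrg4 at 3.65 ± 0.985 RPKM and Prrg2 at 3.23 ± 1.09, which encode transmembrane Gla proteins. The coagulation factor genes F7, F9 and F10 stood at 0.626 ± 0.0185, 0.274 ± 0.246 and 0.162 ± 0.0304 RPKM, and F9 was called below 1 RPKM with 46, 35 and 0 counts. The median of the list was 0.197 RPKM.

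Of 5 genes of vitamin K handling and protein processing, 4 were above 1 RPKM, against 43.2% of all genes tested. Calu, which encodes calumenin, an inhibitor of the carboxylase, had 160, 195 and 161 RPKM (172 ± 19.7) and exceeded Ggcx 8.28-fold. Its level depended on the transcript length, from 142 to 753 RPKM, and was 86.1 RPKM with counts averaged over its 2 rows. Nqo1, a quinone reductase able to reduce vitamin K, stood at 13.5 ± 2.06 RPKM, below Ggcx in 3 of 3 libraries (log2 ratio −0.63 ± 0.14, edgeR adjusted p = 8.59e-06). Aifm2, another vitamin K reductase, stood at 4.17 ± 0.555 RPKM. Lrp1, an endocytic receptor, stood at 521 ± 55.2 RPKM with the median transcript length and at 101 with the longest. Furin, the protease that cleaves the propeptide of osteocalcin, has 2 rows and was listed at 0 in both. Above 1 RPKM were 26.7% of symbols with 2 rows and 45.4% of symbols with 1 row. The part of the row structure in this 0 was not tested, so the value is uncertain.

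Regulators of the osteocalcin gene did not stand at a common level. Of 12 listed, 7 were above 1 RPKM, 1 was below (Msx2) and 4 were unresolved, where 43.2% of all genes tested were above and 13.4% below. Atf4, a transcription factor that acts on Bglap, stood at 299 ± 9.83 RPKM, Cebpb at 76.6 ± 16.0 and Fosl2 at 36.7 ± 2.11. Sp7 (osterix) had 2.71, 2.17 and 1.44 RPKM in replicates 1, 2 and 3. Runx2, the osteoblast master regulator, had 1.25, 1.20 and 1.30 RPKM and was unresolved, and its 3 rows leave that value uncertain. The vitamin D receptor gene Vdr stood at 3.09 ± 0.326 RPKM.

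The Bglap promoter is shown because Runx factors are known to act there. Sites of the other regulators were not searched. RefSeq promoter windows of 300 bases (build GRCm38.p6) matched 8 of the 10 genes, all but Bglap2 and Mgp. The 250 bases before the start of Bglap, at chr3:88384467-88384716 on the minus strand, are printed 5′ to 3′, with matches to ACCACA, the core bound by Runx factors, and to TATAAA, the TATA box, in capitals.
Bglap promoter: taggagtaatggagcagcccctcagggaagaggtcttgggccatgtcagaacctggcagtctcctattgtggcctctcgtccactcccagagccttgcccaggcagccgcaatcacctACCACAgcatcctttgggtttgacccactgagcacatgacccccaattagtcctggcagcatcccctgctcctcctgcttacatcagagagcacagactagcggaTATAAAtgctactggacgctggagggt

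Both motifs were searched on both strands and do not overlap each other. The ACCACA match began 132 bases and the TATAAA match 27 bases before the start. Of 32851 RefSeq promoter windows, 16.8% held ACCACA and 13.6% held TATAAA. Among the other 7 genes with a window, the ACCACA letters were in none, and the TATAAA letters were in 1 of the 2 windows of Postn. These matches describe the sequence and say nothing of which factor was bound.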

How the data were processed

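RNA was measured by strand-preserving RNA-seq (ScriptSeq kit) after ribosomal RNA depletion, per the labels' protocols. The submitters' processing notes name TopHat and the build mm9. How reads were counted, on which annotation, and what was done with strand, duplicates and multiple matches is not given in the sources used here. The deposited files hold whole numbers for 30795 transcript rows, which were read as raw counts with no normalization by the authors. The file names say RPKM, but the values times transcript length in kilobases summed to 111214391 to 144747992, where RPKM values allow about 1000000. All RPKM values rest on this reading.

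Rows of a symbol were summed (21940 symbols with 1 row, 3470 with several). Lengths were medians over GENCODE M21 basic transcripts, for 20840 symbols directly and 2207 through RefSeq synonyms. These 23047 symbols held 96.3% to 96.4% of the counts. Levels were tested two-sided against 1 RPKM or a reference gene of the same library with edgeR 4.0.16 (R 4.3.3; quasi-likelihood F test of the intercept, trended dispersion, robust, with a Poisson bound). All 21011 genes with a count were fitted, and p-values were adjusted by Benjamini-Hochberg (threshold 0.05). These p-values measure agreement among 3 libraries, and they do not cover a length or counting bias that the libraries share. Nor do they cover the counting error of a reference gene, whose counts were taken as known. Only the test against 1 RPKM was run on simulated counts, drawn with the same dispersion for every gene. The tests against a reference gene were not checked in this way.

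Alternatives were DESeq2 1.42.0, limma 3.58.1 with pseudocounts of 0.1 and 1, TMM and DESeq2 scaling, filters on low counts, shortest and longest transcripts, the mean over rows, a GC correction and leaving out each library. A GC correction of the summed levels, and GC correction, DESeq2 and limma for neighbouring genes, were added after seeing the data. Genes named were the 10 members and genes of 4 lists and 6 marker lists, the highest first. Some genes of these lists are not reported here. Members and lists were chosen with earlier results of these data known.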

Additional observations from a re-analysis of the deposited data

How the results depend on the processing

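Of 518 recomputed tests of single members against 1 RPKM, Ggcx, Vkorc1 or Axl, 513 kept their direction and their side of the threshold. The other 5 concerned Vkorc1l1. The 513 include the tests against a reference gene with TMM and DESeq2 scaling. Those could not change, because library scale drops out of them. The number of members called below 1 RPKM was 1 in the reported fit and 0 with DESeq2, with the shortest transcripts and without replicate 1 or replicate 2 (range 0 to 1 when leaving out any library). With the shortest transcripts Vkorc1l1 had a log2 level of 0.757. With DESeq2 the number of members below Axl was 0, against 1. The log2 ratio of the summed Gla protein genes to the enzymes was 4.75 ± 0.06, and became 4.33 with the shortest transcripts, 4.97 with the longest and 4.66 with the mean over rows. Adding Bglap and Bglap2 together leaves this sum as it is. Of 90 recomputed neighbour tests (transcript lengths, rows, left-out libraries and, chosen after seeing the data, GC correction, DESeq2 and limma), 88 kept their direction and their side of the threshold. The log2 ratio of Bglap to Pros1 became −0.396 with the mean over rows, and that of Pros1 to Bglap2 −0.713 with the GC correction. Over all genes, the count below 1 RPKM (2816) was 268 with DESeq2, 9855 and 9888 with limma at pseudocounts of 0.1 and 1, 4345 with no filter, 1223 without replicate 1 and 910 without replicate 2. The count below Axl (11894) was 1892 with DESeq2 and 6673 without replicate 2. No paired analysis was possible because the samples form 1 group. At this depth, Vkorc1l1 rests on 17 to 60 counts a library, whereas each other member had at least 603.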
